A study of Mus musculus with 6 samples.

Results

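CD8 T cells were taken from 6 single-cell RNA libraries made from the 4T1 mouse breast cancer line, a transplantable model of triple-negative disease. A barcode (the tag shared by all reads of a droplet) was a member when it held 300 or more genes, at most 20% mitochondrial UMIs (unique molecular identifiers, each counting 1 captured RNA), 2 or more UMIs of Cd3d, Cd3e and Cd3g together, 1 or more of Cd8a and Cd8b1, none of Cd4 or Foxp3, and fewer than 12 UMIs of Epcam, Krt7, Krt8 and Krt18 per 10000. Members were thus chosen by measured UMIs of the CD3, CD8, Cd4, Foxp3 and epithelial genes. These genes were left out of the calls in the comparisons with other lymphocytes below. The tests within the members, including that between groups, kept them. The rule took 1094 of the 42259 barcodes within the gene and mitochondrial limits, out of 42902 in all. In the control libraries, shNC_1, shNC_2 and shNC_3, it took 188, 106 and 258 barcodes. In the libraries labelled shPgk1_1, shPgk1_2 and shPgk1_3 it took 232, 176 and 134. The control group carried a lentiviral hairpin without a target and the other group one against PGK1, both after puromycin selection, and the labels describe all 6 as 4T1 cells. Neither a host animal, its strain and age, nor grafting is named, although T cells, macrophages and fibroblasts were present. Nothing in the labels says whether the replicates came from separate tumours or cultures. The tests below rest on variation among the libraries, which may be technical.

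CD8 T cells recognise peptides on MHC class I through an alpha-beta T cell receptor, with the CD8 alpha and beta chains as co-receptor and the CD3 chains as signalling partners. On activation they divide, make interferon gamma and load granules with perforin, which opens target membranes, and granzymes, serine proteases that trigger death inside the target. In tumours, repeated receptor signals are known to bring inhibitory receptors such as PD-1 (Pdcd1) and TIM-3 (Havcr2), while a smaller Tcf7-expressing fraction keeps the capacity to renew.

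Most members carried the RNA of alpha-beta CD8 T cells, and a minority did not. The rule set raw UMI counts, so a barcode with many UMIs of other cells could pass on a few T cell UMIs. A stricter set, added after these data were seen and called CD3-dense here, asked for 5 or more CD3 UMIs per 10000 and fewer than 20 UMIs of C1qa, C1qb, C1qc and Lyz2 per 10000. It held 133, 92 and 204 barcodes of the shNC libraries and 200, 166 and 123 of the libraries labelled shPgk1, which is 918 of 1094. Of the other 176, 137 exceeded the macrophage limit and 39 were low in CD3 alone. They made up 29.3%, 13.2% and 20.9% of the members in the shNC libraries and 13.8%, 5.68% and 8.21% in those labelled shPgk1.

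To compare detection at equal depth, each barcode was thinned at random to 2000 UMIs, and shallower barcodes, 2 to 6 members per library, were left out. At that depth 91.2% of CD3-dense members (mean of 6 libraries, range 86.6% to 97.5%) had a UMI of Trac, Trbc1 or Trbc2, which encode the constant parts of the alpha-beta receptor. The share was 29.9% among the other members, 3.66% in macrophage barcodes (5 or more C1q UMIs and no CD3) and 3.93% in tumour cell barcodes (12 or more of the keratin and Epcam UMIs per 10000). Cd8a, a gene of the rule, was detected in 46.2% of the CD3-dense members and 16.6% of the others. Lyz2, a myeloid lysozyme gene, was detected in 34.1% of CD3-dense members, 71.4% of the others, 40.4% of tumour cell barcodes and 82.9% of macrophage barcodes. Trdc, the constant part of the delta chain, was found in 0 of 1071 thinned members, which allows up to 0.280% of members with a UMI at that depth. At full depth a mean of 0.908% of members held a Trdc UMI. Cd40lg, a helper T cell ligand, was likewise found in 0 of them and in 6.73% of the CD4 gate described below. By the receptor genes, which neither rule used, the label fitted the CD3-dense set and not most of the others. Values below are for all members unless that set is named.

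**Figure D1:**
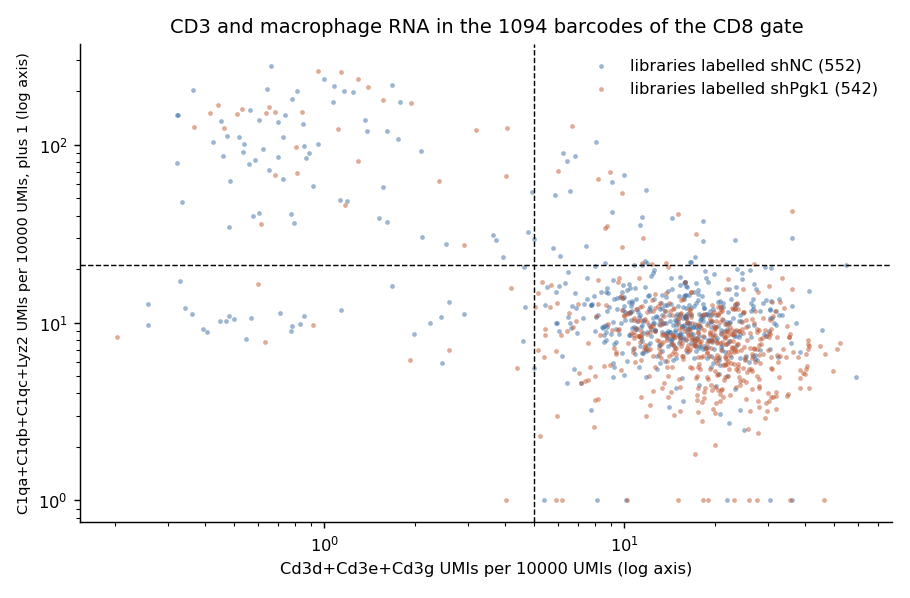
Each point is 1 of the 1094 members, with its CD3 UMIs per 10000 on the horizontal log axis and its macrophage UMIs (C1qa, C1qb, C1qc and Lyz2) per 10000 plus 1 on the vertical log axis, coloured by group. Dashed lines mark 5 CD3 UMIs and 20 macrophage UMIs per 10000: 918 members lie in the lower right, and the cloud at the upper left holds barcodes rich in macrophage RNA.

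The markers of other cells were not evenly spread over the groups. Summed over the 10 macrophage markers, the level was 3242 to 7532 CPM (UMIs of the genes scaled to the total of the sum) in the shNC sums of members and 3050 to 5408 CPM in those labelled shPgk1, and 1876 to 2799 against 1141 to 2036 CPM in the CD3-dense sums. Neutrophil markers summed to 248 to 717 CPM in the shNC libraries and 27.7 to 86.7 CPM in those labelled shPgk1. Tumour epithelium markers summed to 364 to 596 and 651 to 792 CPM, in the opposite order. Among the defining markers, Cd4 and Foxp3 were at 0 by the rule and Trdv4 of gamma delta T cells was at 0 in every library. The part of this RNA in the differences between groups was not tested.

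At the limits of the rule, members with exactly 2 CD3 UMIs numbered 31, 9 and 35 in the shNC libraries and 19, 7 and 8 in those labelled shPgk1. Barcodes that met every other condition with 1 CD3 UMI numbered 86, 32 and 83 and 83, 21 and 34. A single CD8 UMI admitted 181 of the members, and 913 had 2 or more. The members' median depth was 14432 to 21608 UMIs in the shNC libraries and 11023 to 17627 in those labelled shPgk1, so the raw thresholds were passed on more RNA in some libraries than in others.

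The granzyme genes recur in the results, and 6 of them lie in a cluster on chromosome 14 of the mouse genome (build GRCm38, minus strand) in the order Gzme, Gzmd, Gzmg, Gzmf, Gzmc and Gzmb, from chr14:56117626-56120625 to chr14:56258838-56262260. Prf1, the perforin gene, lies at chr10:61297833-61304680 and Gzma at chr13:113093825-113100981. The longest coding transcripts of Gzmd and Gzme were 93.5% identical over their aligned length, those of Gzme and Gzmg 90.3% and those of Gzmf and Gzmg 88.5%, so counts could be split among these genes and are uncertain for each. Gzmb and Gzmc were 77.0% identical.

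The 250 bases upstream of the RefSeq start of 3 cluster genes are shown because these genes were found together in the same barcodes (below). They are taken from RefSeq, build GRCm38.p6, minus strand, 5′ to 3′, at chr14:56262335-56262584 for Gzmb, chr14:56234658-56234907 for Gzmc and chr14:56211408-56211657 for Gzmf. Capitals mark the Runx core letters TGTGGT, or ACCACA where the core is on the other strand, and the AP-1 letters TGANTCA, and no printed hit overlaps another.
Gzmb: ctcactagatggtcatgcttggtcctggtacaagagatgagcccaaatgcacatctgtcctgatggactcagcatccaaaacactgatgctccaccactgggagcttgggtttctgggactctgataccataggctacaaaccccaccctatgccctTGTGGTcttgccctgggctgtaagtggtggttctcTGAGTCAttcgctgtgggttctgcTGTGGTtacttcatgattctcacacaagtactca
Gzmc: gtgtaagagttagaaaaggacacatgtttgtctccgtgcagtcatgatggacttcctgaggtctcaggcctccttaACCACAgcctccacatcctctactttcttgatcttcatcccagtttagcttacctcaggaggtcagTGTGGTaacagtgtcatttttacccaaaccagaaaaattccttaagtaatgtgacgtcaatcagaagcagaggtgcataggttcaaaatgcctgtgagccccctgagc
Gzmf: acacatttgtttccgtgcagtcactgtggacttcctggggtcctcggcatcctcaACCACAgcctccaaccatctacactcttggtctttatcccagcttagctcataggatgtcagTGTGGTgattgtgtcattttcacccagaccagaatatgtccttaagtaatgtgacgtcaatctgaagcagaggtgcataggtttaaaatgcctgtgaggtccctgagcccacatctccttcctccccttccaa
The Gzmb window held 2 Runx cores and 1 AP-1 match, and the Gzmc and Gzmf windows each held 2 Runx cores and no AP-1 match. Of 11 cytotoxic genes looked up, 10 had a promoter in the table (Klrd1 had none), and 9 of those 10 held a Runx core in this window; the Gzmk window held neither motif. The windows of Gzmc, Gzmd, Gzme, Gzmf and Gzmg held their 2 cores in closely similar surrounding letters, so these genes are not independent hits. Across all 32851 promoters of the table, 14.05% held the Runx core and 6.75% the AP-1 letters on either strand. Runx and AP-1 are transcription factor families that act in activated T cells, and a match describes letters only.

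The 6 libraries held 78778073 to 128933960 UMIs, with library medians of 7882 to 11402 UMIs per barcode. No library was a copy of another: the chi-square statistic per degree of freedom between CD8 sums was 3.34 to 13.03. Barcode names were serial numbers within each library, so shared names say nothing of shared cells. Pgk1, the glycolytic kinase that the hairpin targets, stood at 334 ± 18.8 CPM over the whole shNC libraries and 332 ± 14.3 CPM over those labelled shPgk1 (SD, n = 3 each). In the tumour cell barcodes it was 249 ± 27.7 and 285 ± 37.5 CPM. In the CD8 sums it was 521, 505 and 447 CPM against 540, 458 and 503 CPM, with a log2 fold change of 0.03 ± 0.10 (SE; adjusted p = 0.952, edgeR). In none of these 3 sums was Pgk1 lower by more than the spread under the hairpin against it, so the groups are named below by their labels only.

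The abundance of CD8 members did not separate the groups. They were 2.44%, 1.71% and 3.77% of the barcodes of the shNC libraries and 3.46%, 2.37% and 1.81% of those labelled shPgk1 (2.64% ± 1.05 against 2.55% ± 0.837, SD, n = 3; two-sided exact permutation p = 0.9). Wilson 95% intervals, which cover counting error only, ran from 1.41% to 2.06% in the lowest library, shNC_2, and from 3.34% to 4.25% in the highest, shNC_3. Of all barcodes with 2 or more CD3 UMIs, 2870 in number, they were 28.8%, 24.8% and 43.9% against 42.6%, 59.5% and 37.0% (exact permutation p = 0.3). The ratio of CD8 members to regulatory T cells was 1.98, 1.19 and 5.38 against 4.14, 6.29 and 2.35 (exact permutation p = 0.4 on the log2 ratio). Fewer CD8 cells and fewer other cells cannot be told apart in such shares. The ranges overlapped in all 3 measures, and 3 against 3 libraries cannot give an exact p below 0.1. The shPgk1_2 library had both the highest share of CD3 barcodes and the highest ratio. In the CD3-dense set the difference in the share of barcodes had the other sign, 0.230 percentage points higher in the libraries labelled shPgk1 (exact permutation p = 0.8).

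CD8 cells differed from Foxp3-negative CD4 cells of the same libraries in the lists of killing, cell cycle, and naive and memory genes. The CD4 gate (2 or more CD3 UMIs, 1 or more Cd4, no Foxp3, Cd8a or Cd8b1) held 266 barcodes, 21 to 65 per library. Raw counts were summed per library and gate and tested with edgeR's quasi-likelihood test with library as a term, leaving the genes of the gates out of the calls. At a Benjamini-Hochberg adjusted p of 0.05, 1128 of 8828 genes were higher in CD8 (12.8%) and 1210 lower (13.7%). In the CD3-dense barcodes of both gates 16% of 7893 genes were higher and 16.9% lower. Median depth was 11023 to 21608 UMIs in CD8 members and 3337 to 7388 in the CD4 gate.

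Of 16 tested genes of granules and killing, 10 were higher in CD8 and 1 lower, with a median log2 fold of 2.92 where the median of all tested genes was -0.02. In the CD3-dense barcodes 9 were higher and 1 lower. Gzma, which encodes a tryptase granzyme, was at 79.3, 281 and 124 CPM in the CD8 sums of the shNC libraries and 128, 891 and 192 CPM in those labelled shPgk1, against 3.14 to 14.2 CPM in the CD4 sums. The shPgk1_2 library stood highest for Gzma and no CD8 value reached down to a CD4 value (log2 fold 4.77 ± 0.26, adjusted p = 2.55e-10, edgeR). Prf1 was 107 ± 38.6 CPM in CD8 and 4.43 ± 4.00 CPM in CD4 (SD, n = 6; log2 fold 4.53 ± 0.39). Gzmb, the granzyme that cleaves caspases, was at 433, 826 and 497 CPM and 916, 1104 and 1013 CPM in CD8 and at 12.6 to 241 CPM in CD4 (log2 fold 3.27 ± 0.62, adjusted p = 0.0154, edgeR). All 6 CD8 values lay above all 6 CD4 values.

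Gzmc was 1636 ± 666 CPM in CD8 and 134 ± 119 CPM in CD4 (log2 fold 3.75 ± 0.81). Nkg7, a granule membrane protein of killer cells, was 861 ± 143 against 86.1 ± 49.0 CPM (log2 fold 3.34 ± 0.51). Both separated the gates in every library. Serpinb9, an inhibitor of granzyme B, was higher (log2 fold 1.24 ± 0.27), while Srgn, which encodes the granule proteoglycan serglycin, was the member of the list that was lower (-0.47 ± 0.11).

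Other surface and secreted genes of killer lymphocytes were higher in CD8, with 6 of 11 tested killer lectin-like receptor and terminal effector genes higher and 1 lower. Klrc1 and Klrc2, which encode NKG2 chains, had log2 folds of 3.86 ± 0.26 and 3.77 ± 0.34. Their partner Klrd1 (CD94) was 168 ± 51.2 CPM in CD8 and 29.0 ± 17.1 CPM in CD4. Xcl1, a chemokine that attracts cross-presenting dendritic cells, was 322 to 526 CPM in CD8, while in CD4 it was 237 CPM in shNC_1 and 0 to 44.2 CPM in the other libraries. Its separation was narrower in shNC_1 than elsewhere (log2 fold 3.67 ± 0.84). In the CD3-dense barcodes the gates overlapped for Xcl1, with 393.5 CPM in the CD4 sum of shNC_1 above 366 CPM in the CD8 sum of shNC_2. Itga1, an integrin chain that binds collagen, had a log2 fold of 3.34 ± 0.40.

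Cell cycle genes were higher in CD8, in 15 of 17 tested G1/S genes and 17 of 18 tested G2/M genes, with none lower. The CD3-dense counts were 14 of 17 and 15 of 17. Top2a, a topoisomerase of dividing cells, was 119 to 174 CPM in CD8 and 28.3 to 72.2 CPM in CD4 (log2 fold 1.65 ± 0.17). Ube2c and Ccnb2, which act in mitosis, had log2 folds of 1.95 ± 0.20 and 1.89 ± 0.26, and Tyms, which makes thymidylate, 1.55 ± 0.20. At 2000 UMIs, Mki67 was detected in 11.6% of CD8 members, 5.07% of the CD4 gate and 4.93% of macrophage barcodes.

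Genes of protein synthesis and energy metabolism were also higher in CD8. Of 80 tested ribosomal protein genes 75 were higher, with a median log2 fold of 0.43, and 13 of 16 oxidative phosphorylation genes were higher, among them Cycs, the electron carrier cytochrome c (0.94 ± 0.12). Glycolysis genes were higher in 9 of 18 tested, with none lower, and in 11 of 18 among CD3-dense barcodes. Gapdh had a log2 fold of 0.62 ± 0.08 and Eno1 of 0.88 ± 0.12. Pgk1 was 518 ± 40.4 CPM in CD8 and 319 ± 70.9 CPM in CD4 (log2 fold 0.72 ± 0.13, adjusted p = 3.60e-04, edgeR), higher in 6 of 6 libraries, and its log2 fold was 1.13 ± 0.29 in the CD3-dense barcodes.

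Among the largest falls in CD8 was that of Il13, a type 2 cytokine, which was 0 to 3.42 CPM in CD8 and 25.2 to 709 CPM in CD4 (log2 fold -6.16 ± 0.99). Tnfsf8, the CD30 ligand, was 2.47 to 19.2 CPM in CD8 and 118 to 586 CPM in CD4 (log2 fold -5.11 ± 0.46). Il1rl1, the IL-33 receptor, had a log2 fold of -4.55 ± 0.27, and Maf, a transcription factor of helper cells, -3.62 ± 0.39. Izumo1r, a folate receptor family gene of regulatory and helper cells, was 1.48 to 4.81 CPM in CD8 and 31.4 to 101 CPM in CD4. None of these values overlapped between the gates. Lgals7, St6gal1, St8sia1, Tbc1d4 and Ramp3 completed the 10 largest falls, with log2 folds from -4.58 to -3.30.

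Of 13 tested naive, memory and stem-like genes, 9 were lower in CD8 and 1 higher (10 lower among CD3-dense barcodes). Tcf7, a factor of the self-renewing state, was 8.04 to 22.1 CPM in CD8 and 28.2 to 148 CPM in CD4 (log2 fold -1.99 ± 0.24). Lef1 and S1pr1, which belong to naive and recirculating cells, fell by 2.27 ± 0.21 and 3.01 ± 0.32 on the log2 scale. The IL-7 receptor gene Il7r fell by 1.39 ± 0.16. All of these were also lower in the CD3-dense barcodes.

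Early response genes of the T cell receptor were lower in CD8 for 11 of 14 tested and higher for none, and NF-kB pathway genes for 9 of 16 and none. Junb fell by 0.90 ± 0.10 and Nfkbia, the NF-kB inhibitor induced by NF-kB itself, by 0.85 ± 0.09 on the log2 scale. Birc3, an NF-kB target, fell by 1.36 ± 0.18. Costimulatory receptors were lower for 6 of 10, with Tnfrsf4 (OX40) at -1.96 ± 0.17 and Icos at -1.46 ± 0.18. Of the T cell core list 2 of 15 were higher and 8 lower, the latter including Cd5, which damps receptor signals (-2.17 ± 0.18).

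The checkpoint and exhaustion list split, with 7 of 19 tested genes higher in CD8 and 6 lower. Pdcd1, Havcr2 and Lag3 were higher, with log2 folds of 1.39 ± 0.24, 1.55 ± 0.19 and 1.28 ± 0.35. Tox, a transcription factor of exhausted and helper cells, was lower at -2.00 ± 0.16. Of 16 tested T cell cytokines and chemokines 2 were higher and 6 lower (5 higher and 4 lower of 15 in the CD3-dense barcodes), and of 15 interferon-stimulated genes 6 were lower and none higher. Macrophage markers were lower in CD8 for 3 of 10 tested, and for 0 of 8 among CD3-dense barcodes (edgeR).

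**Figure D2:**
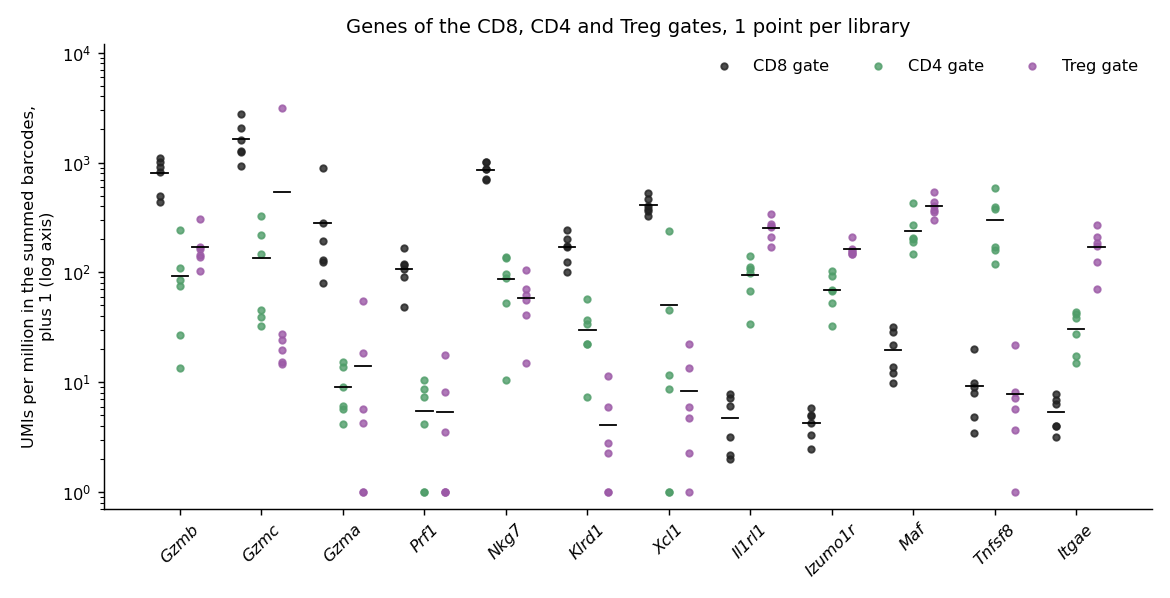
Each point is 1 library's summed level in CPM plus 1 on a log axis, for the CD8, CD4 and Treg gates, and each line is the mean of 6 libraries; CD8 and CD4 values come from the fit of those 2 gates and Treg values from the fit of CD8 against Treg. The 6 CD8 points lie above the 6 CD4 points for Gzmb through Xcl1 and below them for Il1rl1 through Itgae, and 1 Treg library reached 3116 CPM of Gzmc.

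CD8 cells were higher than regulatory T cells in 14 of 16 tested granule and killing genes and in Ifng, and lower in 8 of 10 costimulatory receptor genes. The Treg gate (2 or more CD3 UMIs, 1 or more Foxp3, no Cd8a or Cd8b1) held 373 barcodes, 28 to 95 per library. Of 9125 tested genes 1441 were higher in CD8 (15.8%) and 1447 lower (15.9%), and in the CD3-dense barcodes 18.2% and 19.4% of 8391. Median depth in the Treg gate was 5519 to 7169 UMIs.

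Of 16 tested granule and killing genes 14 were higher in CD8 and 1, Srgn, lower (log2 fold -0.69 ± 0.09), and the CD3-dense counts were the same. Gzmf was 1887, 1603 and 314 CPM and 551, 1501 and 3584 CPM in CD8 and 3.55 to 18.0 CPM in Treg (log2 fold 6.89 ± 0.27). The CD8 values spread widely, from shNC_3 to shPgk1_3, and all lay above the Treg values. Gzmb was 838 ± 289 CPM in CD8 and 170 ± 71.5 CPM in Treg (log2 fold 2.27 ± 0.20). Gzmc was 969 to 2889 CPM in CD8, while in Treg it was 13.7 to 26.6 CPM in 5 libraries and 3116 CPM in shPgk1_3. That library's Treg value lay above all CD8 values (log2 fold 5.04 ± 1.27, adjusted p = 0.0336, edgeR), and in the CD3-dense barcodes the log2 fold was 6.93 ± 0.15. Gzmg and Gzmd had log2 folds of 5.99 ± 0.61 and 5.82 ± 0.42, with the doubt on near-identical genes given above. Prf1 and Nkg7 had log2 folds of 4.34 ± 0.49 and 3.92 ± 0.31.

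Ccl1, a chemokine of activated T cells, was 68.6 to 150 CPM in CD8 and 0 CPM in 5 Treg sums, with 1.24 CPM in shNC_2. Ifng was 178.6, 138 and 88.3 CPM and 137, 83.8 and 177 CPM in CD8 and 0 to 10.7 CPM in Treg (log2 fold 4.67 ± 0.25). The 2 gates were far apart for both genes in every library. Klra5, Klrc1 and Klrd1 of the killer receptor family had log2 folds of 6.18 ± 0.40, 6.03 ± 0.43 and 5.77 ± 0.29, and 7 of 11 genes of their list were higher. Nrgn, Xcl1 and Tcrg-C2 completed the 10 largest rises (6.16, 5.81 and 5.53). Tcrg-C2 encodes a constant part of the gamma chain, and it was detected in 6.30% of CD3-dense members at 2000 UMIs while Trdc was not.

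Itgb8, the integrin chain with which regulatory T cells activate TGF-beta, was 0 to 1.13 CPM in CD8 and 46.1 to 79.6 CPM in Treg (log2 fold -7.82 ± 0.37). Itgae, the CD103 chain that binds E-cadherin, was 2.26 to 7.17 CPM in CD8 and 69.2 to 267 CPM in Treg. Both genes were lower in CD8 in every library. The other large falls were Il1rl1, Izumo1r, Tspan32, Zdhhc23, Sh3rf1, Maf and the immunoglobulin gene Igkc, with log2 folds from -5.77 to -4.17.

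Costimulatory receptors were lower in CD8 for 8 of 10 tested and higher for 2, with Icos at -2.44 ± 0.12 and Tnfrsf18 (GITR) at -2.32 ± 0.11. The checkpoint list gave 8 higher and 10 lower of 20. Pdcd1 was 157 to 272 CPM in CD8 and 55.0 to 98.3 CPM in Treg (log2 fold 1.57 ± 0.14), and Ctla4 was 112 to 184 CPM against 689 to 848 CPM (-2.40 ± 0.11). These 2 receptor genes were ordered oppositely in every library. Cell cycle genes were higher for 9 of 19 G1/S and 9 of 18 G2/M genes with none lower, ribosomal protein genes for 79 of 80, and glycolysis genes for 10 of 18 with 1 lower. NF-kB pathway genes were lower for 10 of 16 and higher for 1, and T cell receptor early response genes split, with 5 of 14 higher and 4 lower. Pgk1 had a log2 fold of 0.83 ± 0.16 (adjusted p = 0.00134, edgeR; 0.89 ± 0.13 in the CD3-dense barcodes).

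Natural killer (NK) cells kill with the same granules but have no T cell receptor, and few barcodes met the gate set for them. The NK gate (1 or more Ncr1, 2 or more of Ncr1, Klrb1c and Klre1 together, and no UMI of the CD3, CD8, Cd4 or Foxp3 genes) held 72 barcodes, 22, 9, 5, 16, 13 and 7 in the 6 libraries. Median depth in the NK gate was 3834 to 5657 UMIs, apart from 13168 in shPgk1_3. Deeper NK cells with a stray T cell UMI would fall outside this gate, so its size is no count of NK cells. Of 7833 tested genes 420 were higher in CD8 (5.36%) and 359 lower (4.58%). In the stricter barcodes 6.21% and 5.76% of 7261 were higher and lower. These were the CD3-dense CD8 members and the 70 NK barcodes under the macrophage limit, since the CD3 limit cannot apply to NK barcodes. Leaving out shPgk1_1 gave 377 calls in all where the 6 libraries gave 779, and leaving out shNC_1 gave 434.

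Of 15 tested T cell core genes that the gates did not use, 8 were higher in CD8 and none lower, and 9 were higher in the stricter barcodes. Trac was 295 to 449 CPM in CD8 and 0 to 28.9 CPM in NK (log2 fold 4.79 ± 0.39), and the adaptor Lat and the transcription factor Bcl11b had log2 folds of 3.46 ± 0.39 and 4.68 ± 0.65. Themis, a T cell signalling protein, was 84.2 to 180 CPM in CD8, and it was 0 in all 6 NK sums, as were Fam169b, Tcrg-C2 and Batf3. Cd6, Adam19, Tnfsf11 and Ccl1 completed the 10 largest rises, with log2 folds of 5.96, 5.17, 4.83 and 6.37. Pdcd1 was 161 to 277 CPM in CD8 and 0 to 16.4 CPM in NK apart from 121 CPM in shNC_2 (log2 fold 3.67 ± 0.38).

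Glycolysis genes were higher in CD8 than in NK for 11 of 17 tested and lower for none, with Gapdh at 1.46 ± 0.25, Aldoa at 1.23 ± 0.26 and Pgk1 at 1.35 ± 0.27 (adjusted p = 3.55e-05, edgeR). The count in the stricter barcodes was again 11 of 17. The G1/S list gave 8 of 17 higher, and 13 of 17 in the stricter barcodes. Macrophage markers were higher in CD8 for 5 of 9 tested, and for 0 of 7 in the stricter barcodes, where C1qa went from a log2 fold of 1.30 ± 0.27 to 0.29 ± 0.26.

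Of 16 tested granule and killing genes, 1 was higher in CD8 than in NK and 4 were lower, in all barcodes and in the stricter ones. Prf1 was 51.0 to 176.5 CPM in CD8, and in NK it was 0 in the 5 barcodes of shNC_3 and 129 to 1188 CPM in the other libraries. The ranges overlapped (log2 fold -1.05 ± 0.28, adjusted p = 0.00546, edgeR). Serpinb6b and Serpinb9, granzyme inhibitors, were lower in CD8 at -2.29 ± 0.27 and -1.58 ± 0.30, and the cytotoxic gene Gzmk was higher at 1.69 ± 0.49. Gzmb had a log2 fold of 2.21 ± 0.88 and did not pass the test (adjusted p = 0.228, edgeR).

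The NK receptor genes Klrb1f, Klrb1a, Klra3 and Klri2 were lower in CD8, with log2 folds of -6.16 ± 0.56, -5.87 ± 0.56, -4.20 ± 0.58 and -3.69 ± 0.40. Clnk, Atp1b1, Spry2, Adamts14 and Lsamp were other large falls, from -5.52 to -3.24. Naive, memory and stem-like genes were lower for 8 of 12, among them Eomes, a factor of NK and memory cells (-2.45 ± 0.34), and Tcf7 (-2.11 ± 0.37). Ccl5 and Xcl1, chemokines that NK cells release, were lower in CD8 at -2.14 ± 0.26 and -1.52 ± 0.26.

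**Figure D3:**
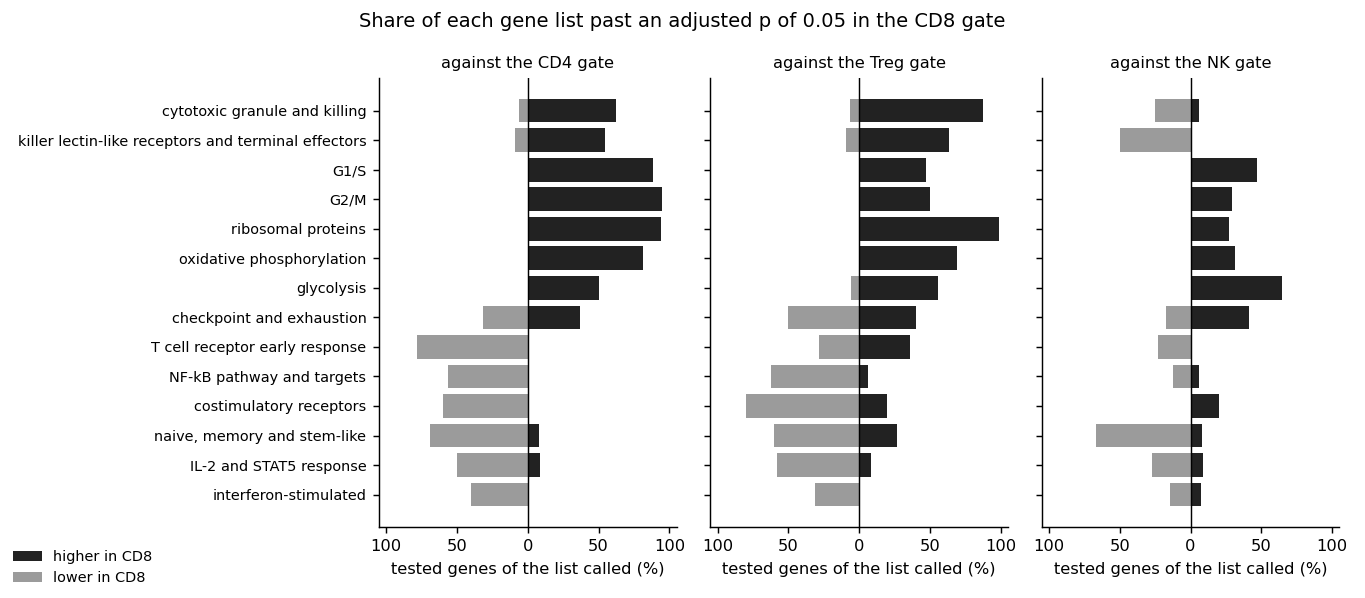
Bars give the share of the tested genes of 14 lists that were higher (right, black) or lower (left, grey) in CD8 at an adjusted p of 0.05, against the CD4, Treg and NK gates. Cytotoxic genes point right against CD4 (10 of 16) and Treg (14 of 16) but not against NK (1 of 16), while glycolysis genes point right in all 3 panels (9 of 18, 10 of 18 and 11 of 17).

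Among the CD8 members themselves, other granzyme genes and Prf1 were detected more often in barcodes with Gzmb than in those without. After thinning to 2000 UMIs, Gzmb was detected in 35, 31 and 82 members of the shNC libraries and in 83, 94 and 60 of those labelled shPgk1, and not in 148, 73, 173, 145, 79 and 68. Within each library the detection of 30 other genes was compared between these sets, with a two-sided exact sign-flip permutation test over the 6 libraries, whose smallest p is 0.03125. All 9 genes higher in 6 of 6 libraries reached that p, as did 4 genes lower in 6 of 6. In this sign-flip test the adjusted p was 0.0721 over the 30 genes (0.0852 in the CD3-dense set), so none passed 0.05. The 30 genes were a chosen list. The share of all detected genes with the same sign in 6 of 6 libraries was not counted.

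Gzmc was found in 58.1% of Gzmb-detected members and 14.1% of the others, 44.0 percentage points more. Gzmf was found in 30.8% and 6.35%, and Gzma, whose gene lies on another chromosome, in 22.2% and 4.81%. Prf1 was found in 23.6% and 8.04%, Nkg7 in 82.4% and 60.8% and Klrd1 in 34.0% and 23.1%. Each of these differences had the same sign in all 6 libraries, also in the CD3-dense set. Their size did not always carry over. In the CD3-dense set Nkg7 was found in 83.2% and 72.2% and Klrd1 in 34.3% and 27.5%, which are smaller differences. Gzmc, at 58.3% and 15.3% there, changed little. Among all members Gzmk (6.69 points), Havcr2 (6.25) and the ectonucleotidase gene Entpd1 (3.68) were higher by less. Gzmk and Havcr2 did not keep 6 of 6 in the CD3-dense set.

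Ccr7, the receptor that guides cells to lymph nodes, was found in 4.11% of Gzmb-detected members and 15.1% of the others. Xcl1, Il7r and Tcf7 were lower by 7.38, 5.90 and 5.12 percentage points. All 4 were lower in 6 of 6 libraries in both member sets. Mki67 and Top2a differed by 1.47 and 1.80 points, with both signs among the libraries. The libraries share the thinning depth, and the untrimmed median depth of Gzmb-detected members was 13487 to 23587 UMIs against 9069 to 22120 in the others.

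**Figure D4:**
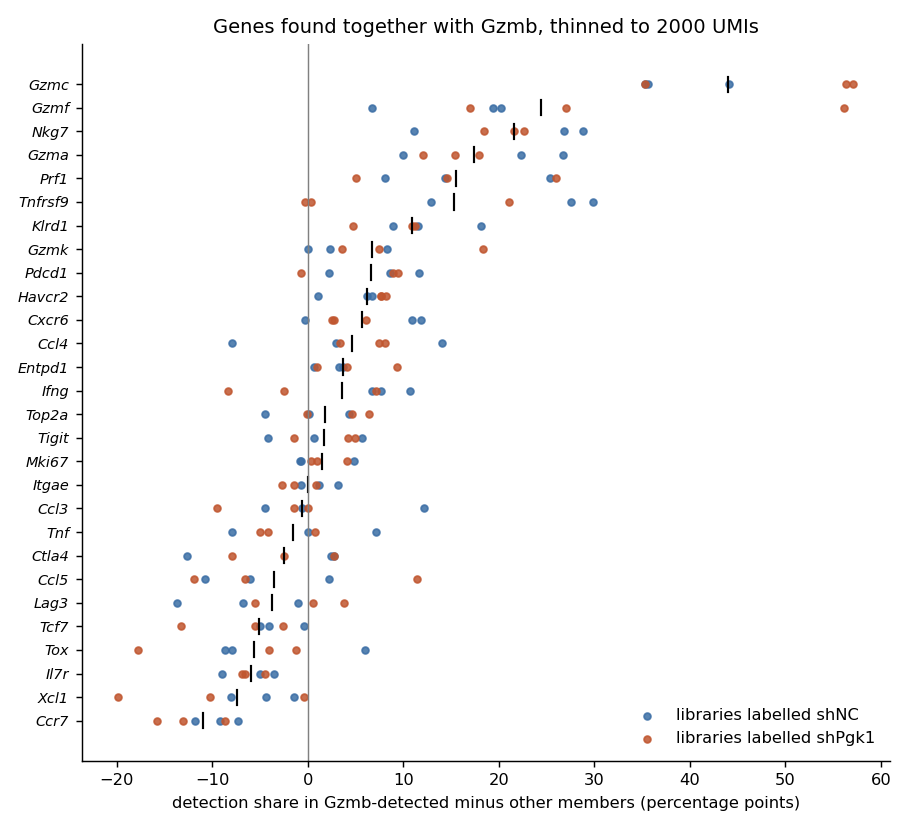
Each point is 1 library: the share of Gzmb-detected members with the gene minus the share of the other members with it, in percentage points at 2000 UMIs, with the mean of 6 libraries as a bar. The points of Gzmc, Gzmf, Nkg7, Gzma and Prf1 all lie right of 0, and those of Ccr7, Xcl1, Il7r and Tcf7 all lie left of it.

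The edgeR test on the sums of both sets, with library as a term, called 141 of 2010 genes higher with Gzmb (7.01%) and 160 lower (7.96%). In the CD3-dense set it called 4.55% and 8.12% of 1848. Leaving out shNC_3 gave 195 calls in all in place of 301. Gzmc was 3754, 2515 and 2286 CPM and 3955, 2126 and 4765 CPM with Gzmb and 198 to 673 CPM without (log2 fold 3.22 ± 0.27, and 2.95 ± 0.26 in the CD3-dense set). Gzma was 386 to 2010 CPM with Gzmb, highest in shPgk1_2, and 50.3 to 350 CPM without, and these ranges overlapped in the CD3-dense set. Of 11 granule and killing genes 4 were higher in both member sets: Gzmc, Gzma, Prf1 (log2 fold 1.81 ± 0.26) and Nkg7 (0.75 ± 0.09, and 0.46 ± 0.09 in the CD3-dense set). Gzmf and Gzmg, at 3.05 ± 0.84 and 4.11 ± 1.04, lay higher in 5 of 6 libraries and did not pass the test (adjusted p = 0.0762 and 0.0596, edgeR).

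Glycolysis genes were higher with Gzmb for 5 of 14 tested and lower for 1, and for 6 of 13 and none in the CD3-dense set. Gapdh was 2561 to 3652 CPM with Gzmb and 1893 to 2446 CPM without (log2 fold 0.51 ± 0.06). Pgk1 was 582 ± 137 against 391 ± 43.0 CPM, higher in 6 of 6 libraries (log2 fold 0.52 ± 0.13, adjusted p = 0.00796, edgeR, and 0.61 ± 0.13 in the CD3-dense set). Ldha, Eno1 and Aldoa had log2 folds of 0.51 ± 0.11, 0.61 ± 0.13 and 0.43 ± 0.10. Phgdh, the first enzyme of serine synthesis, and Hopx, a cofactor of effector cells, were higher by 1.10 ± 0.26 and 0.94 ± 0.26. Phb2 and Rac2 were higher in both sets, while Klk8, Abcb9 and Aimp1 passed only among all members (adjusted p = 0.0654, 0.0738 and 0.117 in the CD3-dense set, edgeR).

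Of 6 tested naive, memory and stem-like genes 3 were lower with Gzmb (Ccr7, Bach2 and Foxp1) and none higher, in both member sets. Ccr7 was 10.3 to 103 CPM with Gzmb and 118.5 to 261 CPM without (log2 fold -1.65 ± 0.37). Bach2 and Foxp1, factors that hold T cells in a quiescent state, fell by 1.72 ± 0.26 and 1.16 ± 0.26 on the log2 scale. Early response genes were lower for 6 of 13 tested (7 of 13 in the CD3-dense set), with Nfkbia at -0.66 ± 0.10 and Fosb at -0.68 ± 0.13. Zfp36l1, an RNA-decay factor, was 47.8 ± 18.0 CPM with Gzmb and 189 ± 65.8 CPM without (SD, n = 6), without overlap. Elmsan1, Emb, Nfkbiz and Itpkb fell by 1.75, 1.48, 1.41 and 1.40 on the log2 scale and were lower in both member sets.

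Macrophage markers were lower with Gzmb among all members, for 5 of 5 tested, and for 0 of 5 in the CD3-dense set, where Lyz2 went from a log2 fold of -1.43 ± 0.14 to -0.22 ± 0.17. The 3 fibroblast markers tested were lower among all members, and neither of the 2 tested passed in the CD3-dense set. Cxcl2, a neutrophil chemokine made by myeloid cells, went likewise from -1.40 ± 0.14 to -0.04 ± 0.15, and Ctss, a myeloid protease, from -1.60 ± 0.14 to -0.55 ± 0.18. Tnfaip2 and Plaur, at -2.07 and -1.51 among all members, were not tested in the CD3-dense set because they were below its count limit. The glycolysis and granule results above held in both sets.

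Between the 2 groups, 4 effector genes, Gzmb, Gzmc, Prf1 and Klrd1, were detected in a larger share of members in the libraries labelled shPgk1. Tnf, also an effector gene, was detected in a smaller share. In neither member set did the groups overlap for these genes. The 31 genes of this comparison were tested with two-sided exact permutation tests, in which 3 against 3 libraries cannot give a p below 0.1, and the adjusted p of each gene without overlap was 0.443. Of the 31, 6 were higher without overlap in the libraries labelled shPgk1 (Gzmb, Gzmc, Prf1, Pdcd1, Nkg7 and Klrd1) and 1, Tnf, was lower. Of 4440 genes detected in a mean of at least 5% of members, 12.5% did not overlap between the groups, and 11.2% of 4410 in the CD3-dense set.

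Gzmb was detected in 19.1%, 29.8% and 32.2% of members of the shNC libraries and in 36.4%, 54.3% and 46.9% of those labelled shPgk1. The group means were 27.0% ± 6.95 and 45.9% ± 9.01 (SD, n = 3, exact permutation p = 0.1). In the CD3-dense set the shares were 24.6%, 34.4% and 38.3% against 40.9%, 57.1% and 49.2%. Without thinning the means were 50.3% and 62.4%. The share was 1.77% in macrophage barcodes, 8.59% in the CD4 gate and 22.1% in the Treg gate at the same depth.

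Gzmc was detected in 18.6%, 29.8% and 22.4% against 36.0%, 38.2% and 36.7%, with 3.38% in macrophage barcodes. Prf1 was detected in 10.9%, 12.5% and 5.49% against 18.4%, 16.8% and 15.6%, and Klrd1 in 16.4%, 26.0% and 20.8% against 31.6%, 28.9% and 37.5%. All 3 genes stayed apart in the CD3-dense set as well. Pdcd1 was detected in 26.8%, 32.7% and 26.3% against 33.8%, 37.6% and 33.6%. Nkg7 was detected in 59.6%, 66.3% and 64.7% against 72.4%, 76.3% and 71.9%, and its groups overlapped in the CD3-dense set. There Gzmf did not overlap, with 6.15%, 15.6% and 10.9% against 15.7%, 19.6% and 36.4%, the nearest libraries differing by a small margin.

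Tnf was detected in 14.2%, 9.62% and 9.02% of members of the shNC libraries and in 4.39%, 4.05% and 6.25% of those labelled shPgk1. All 6 shares lay below its 17.6% in macrophage barcodes. In the CD3-dense set Tnf was also lower without overlap, at 12.3%, 8.89% and 7.46% against 3.54%, 4.29% and 5.93%. Ifng was detected in 10.9% to 18.3% and 14.5% to 23.2%, Gzma in 7.65% to 13.5% and 9.21% to 17.3%, and Havcr2 in 9.29% to 15.4% and 10.9% to 13.3%, with overlap in each. Tcf7 and Mki67 overlapped too, with group means of 5.16% and 3.90%, and 11.4% and 11.9%. Macrophage barcodes had 9.04% for Havcr2, close to its share in CD8 members.

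**Figure D5:**
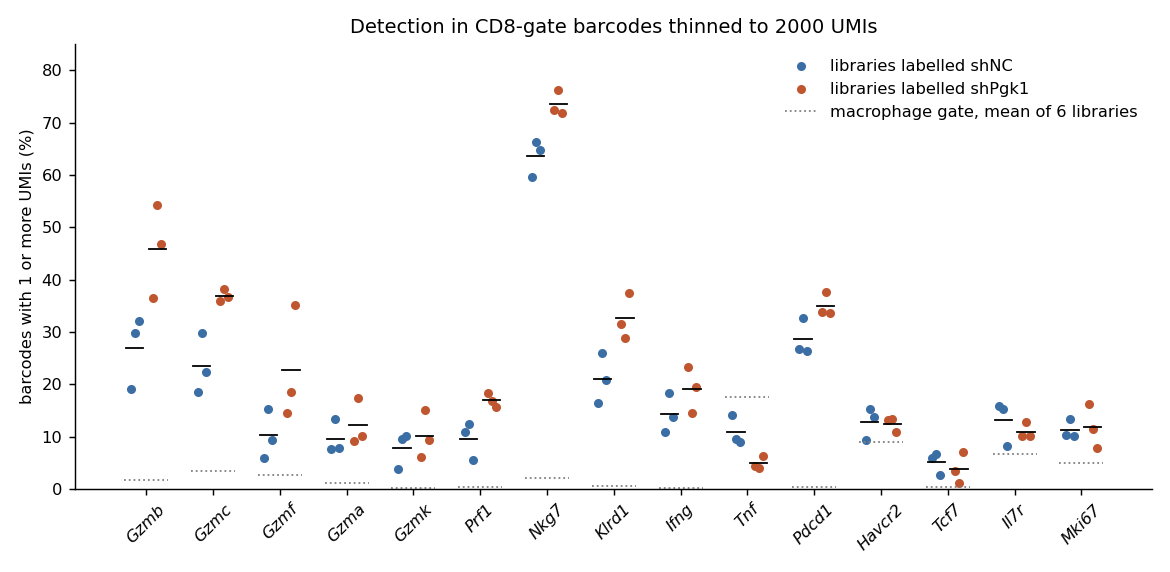
Each point is 1 library's share of CD8 members with 1 or more UMIs of the gene after thinning to 2000 UMIs, with the group mean as a line and the mean share in macrophage barcodes dotted. The points labelled shPgk1 lie above the shNC points for Gzmb, Gzmc, Prf1, Nkg7, Klrd1 and Pdcd1 and below them for Tnf, whose dotted background lies above both groups.

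The test across all genes on the summed counts called none of these effector genes. It called 4 of 11196 genes, 0.0357%, all lower in the libraries labelled shPgk1, while 999 had an unadjusted p under 0.05 (edgeR). Gzmb was 411, 785 and 477 CPM against 872, 1066 and 978 CPM, without overlap (log2 fold 0.80 ± 0.25, adjusted p = 0.479, edgeR). Gzmc was 884 to 1209 CPM against 1536 to 2658 CPM (0.91 ± 0.23, adjusted p = 0.378), and Prf1 and Nkg7 had log2 folds of 0.75 ± 0.31 and 0.37 ± 0.11. Their values lay higher in every library labelled shPgk1, and the differences did not pass the adjustment. Prf1 and Nkg7 overlapped between the groups in the CD3-dense sums. In the CD3-dense set the log2 fold of Gzmb was 0.59 ± 0.14 (adjusted p = 0.179, edgeR). The granule and killing list had 0 of 17 genes called and a median log2 fold of 0.47 (0.29 in the CD3-dense set), against 0.00 over all genes. The T cell core list, which holds genes of the rule, had a median of 0.31 with 18 of 18 genes above 0 (0.14 in the CD3-dense set). Macrophage markers had a median of -0.51 with 0 of 10 above 0 (-0.48 in the CD3-dense set). The part of member make-up in the granule shift was not tested. Of the 19 functional lists none had a called gene among all members.

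Among genes higher in the libraries labelled shPgk1, none was called, and the 5 with the smallest p were Ms4a4b, Inpp4b, Cd52, Cd3g and Isg20. Ms4a4b, a membrane protein of T cells, was 187, 214 and 152 CPM against 301, 300.3 and 339 CPM (log2 fold 0.77 ± 0.13, adjusted p = 0.138, edgeR). The other 4 had log2 folds from 0.46 to 0.75, and Cd3g is a gene of the rule.

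The 4 called genes were Spata7, Arvcf, Gm14015 and Gm48166, the last 2 named although they have model names only. Spata7, a ciliary protein, was 230.4, 189 and 224 CPM in the shNC libraries and 89.1, 70.6 and 71.4 CPM in those labelled shPgk1 (log2 fold -1.47 ± 0.13, adjusted p = 0.00180, edgeR). Arvcf, a catenin family gene, was 49.5, 53.8 and 50.6 CPM against 6.19 to 12.9 CPM (-2.25 ± 0.22, adjusted p = 0.00249). Gm14015 was 19.6 to 27.7 CPM against 0 to 0.203 CPM. The groups did not overlap in any of the 4.

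In tumour cell and macrophage barcodes Spata7 and Arvcf also differed between the groups, without overlap. Arvcf overlapped between the groups in the CD4 gate (38.25 ± 10.9 and 23.6 ± 21.1 CPM) and in the Treg gate (25.4 ± 4.87 and 9.64 ± 12.1 CPM). Spata7 was 822 ± 207 CPM in tumour cell barcodes of the shNC libraries and 314 ± 33.1 CPM in those labelled shPgk1, and 294 ± 54.2 against 120 ± 10.2 CPM in macrophage barcodes. Arvcf was 92.0 ± 13.9 against 46.2 ± 5.90 CPM in macrophage barcodes.

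Among CD3-dense members 14 of 10195 genes were called, 0.137%, of which 1 was higher and 13 lower. The higher gene was Clu, a marker of the tumour epithelium list, at 1.02 ± 0.18, and it was higher in tumour cell barcodes as well (732 ± 47.4 against 1039 ± 197 CPM). The lower genes were the 4 above with Agbl3, Cdk8, Myo1h, Nkain2, Uhrf1bp1l, the chemokine genes Ccl6, Ccl9 and Cxcl2, and Tnfrsf4. Tnfrsf4 (OX40) was 66.8, 97.0 and 56.1 CPM against 45.1, 25.5 and 31.4 CPM over all members, and its log2 fold in the CD3-dense set was -1.33 ± 0.19 (adjusted p = 0.00714, edgeR). Its groups overlapped in the CD4 gate (241 ± 67.0 and 190 ± 88.0 CPM) and in the Treg gate (623 ± 145 and 621 ± 131 CPM). Tnfrsf4 was lower without overlap, at low levels, in macrophage barcodes (3.55 ± 0.182 and 1.45 ± 0.362 CPM) and tumour cell barcodes (4.03 ± 1.07 and 1.84 ± 0.719 CPM). Of the 14 genes called in either member set, 13 separated the groups in the same direction in tumour cell barcodes and 12 in macrophage barcodes. In the Treg gate 10 did so and in the CD4 gate 5. The share of all genes that separated the groups in these gates was not counted. The gates also differ in size, with 266 barcodes in the CD4 gate and 19815 tumour cell barcodes. These counts therefore cannot show whether a difference is shared or particular to CD8 members. The edgeR interaction test, which asks whether the group difference in CD8 members differs from that in the CD4 gate, called 3 of 10002 genes, 0.03%, with 537 at an unadjusted p under 0.05. It called 0 of 9054 in the CD3-dense barcodes, 0%, with 413 at an unadjusted p under 0.05 (edgeR). Tnfrsf4 had an interaction log2 fold of -0.60 ± 0.31 (adjusted p = 0.934, edgeR). Gzmc had an interaction log2 fold of 3.45 ± 0.51 and did not pass (adjusted p = 0.352, edgeR). Leaving out shNC_1, shNC_2 or shNC_3 gave 11, 112 and 8 genes called among all members. The CD3-dense test without shNC_3, shPgk1_1, shPgk1_2 or shPgk1_3 called 22, 199, 6 and 5. The interaction test called 7 genes without shNC_3 and 19 without shPgk1_1.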

How the data were processed

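The deposited files held UMI counts per gene and barcode for 6 mouse libraries, 3 per group. The authors made these counts with PISA 0.12, per the file headers, and Seurat 4 with build GRCh38 (hg38) is named in the submitters' processing notes, although the gene names are mouse names. An aligner and an annotation were not given in the sources used here. All members, gene lists and tests were chosen with earlier results of these data known.

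Raw counts were summed per library and gate and tested with edgeR 4.0.16 in R 4.3.3 (TMM, filterByExpr, robust quasi-likelihood test, Benjamini-Hochberg over all tested genes, threshold 0.05), with library as a term between gates. Each fit was normalised on its own, so CPM of a gene differ slightly between fits. The SE of an edgeR log2 fold was back-calculated as its absolute value over the square root of the test's F statistic. It was not estimated directly, so a fold many SE from 0 can still fail the test. Detection shares used barcodes thinned to 2000 UMIs and intervals cover counting error only. DESeq2 1.42.0, no count filter, a replicate block, leave-one-out fits, barcodes with a Scrublet score of 0.25 or more left out (35 members), and other member rules were alternatives. Doublets were otherwise kept. Genes named are the 10 largest rises and falls past the threshold at a mean of 20 CPM or more without overlap, up to 4 genes of each list with the smallest p, the genes of the detection comparison and Pgk1, with others named in the text chosen after their values were seen. The edgeR code was tested on simulated data. Promoters came from RefSeq (GRCm38.p6) and gene positions from GENCODE M21. A gene that the naming rule takes is not reported here.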

Additional observations from a re-analysis of the deposited data

Results flagged for a closer look

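The group difference in CD8 members differed from that in the CD4 gate for 3 genes by edgeR's interaction test, and for none in the CD3-dense barcodes of both gates. Prtn3, a neutrophil protease gene, had an interaction log2 fold of -12.03 (adjusted p = 0.00359, edgeR); in CD8 members it was 139.7 CPM in shNC_1 and 1.08 to 3.46 CPM elsewhere, and in the CD4 gate it was 16.1 CPM in shPgk1_1, 12.3 CPM in shPgk1_3 and 0 in the other libraries. Tnfsf8, the CD30 ligand gene, had -2.11 (adjusted p = 0.0162); it was 6.94, 19.4 and 8.83 CPM against 3.88, 8.08 and 2.49 CPM in CD8 members and 116 to 572 CPM in the CD4 gate, and its log2 fold was -1.52 in the CD3-dense barcodes (adjusted p = 0.599). Ms4a7, a macrophage marker, had -2.48 (adjusted p = 0.0213). The part of neutrophil and macrophage RNA in these values was not tested.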

How the results depend on the processing

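Under the alternatives, 1205 values of named genes kept their direction and side of the threshold, 129 no longer passed it, 65 passed it only there and 7 changed sign. The number of genes called between groups depended on the setting. Of 11196 genes, 4 were called between groups, and 60 by DESeq2. The other settings tested other numbers of genes. No filter on low counts gave 424 of 21611, and members with 2 or more CD8 UMIs 10 of 10532. Members thinned to 2000 UMIs gave 17 of 4462 and the CD3-dense set 14 of 10195. Members without 5 or more macrophage UMIs, of which 200 were left, gave 0 of 1675. Leaving out 1 library gave 3 to 112 (112 of 12152 without shNC replicate 2). In the CD3-dense set leaving out 1 library gave 5 to 199 where 14 were called (199 without shPgk1 replicate 1). Thinning to 2000 UMIs, which left fewer genes to test, gave 812 calls against CD4, 1232 against Treg and 500 against NK. Leaving out 1 library gave 1726 to 2122, 2283 to 2930 and 377 to 864 in these, 195 to 257 in the Gzmb split (195 without shNC replicate 3; without a count filter 31 higher and 208 lower), and 2 to 19 in the interaction test, which called 0 in the CD3-dense set. The exact tests of detection and of genes found with Gzmb gave 0 genes past an adjusted p of 0.05 in every setting; 3 against 3 libraries cannot pass it, and the smallest p of the sign-flip test, reached by 13 of 30 genes, gave 0.0721.

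The difference in the share of barcodes was -0.0929 percentage points, and 0.169 with 2 or more CD8 UMIs, 0.207 after thinning to 1000 UMIs before the gates and 0.230 in the CD3-dense set, with -0.559 to 0.472 on leaving out 1 library. Leaving out 1 library gave 7.28 to 19.5 points in the share of CD3 barcodes and 0.273 to 1.36 in the log2 ratio to Treg. Pgk1 between groups changed sign, with log2 folds of -0.00354 with 2 or more CD8 UMIs, -0.0237 thinned, -0.0330 in the CD3-dense set and -0.0389 to 0.0927 on leaving out 1 library. Cxcl2 went to 0.154 with 2 or more CD8 UMIs and -0.396 to 0.159 on leaving out 1 library. The causes were not tested.

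With the replicate number as a block the group test called 35 genes, and 24 in the CD3-dense set. Deviations from the group means correlated at 0.158, 0.133 and -0.142 between libraries of the same number. Between libraries of other numbers they correlated at -0.213 to 0.0991. With 3 libraries per group these values cannot decide whether the numbers pair the samples.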
